A study of Mus musculus with 8 samples.

Results

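The genes of the mitochondrial respiratory chain were compared between colonic tumors of MDR1A KO and WT mice. Members were taken by symbol, as genes with an array probe set of their own (annotated with exactly 1 symbol) whose symbol began with Ndufa, Ndufb, Ndufc, Ndufs or Ndufv and a digit, began with Uqcr, began with Cox4 to Cox8 and a letter, or was Sdha, Sdhb, Sdhc, Sdhd or Cyc1. This gave 63 genes of the 22180 with such a probe set: 33 with a symbol of complex I, 4 of complex II, 9 of complex III and 17 of complex IV. The 63 genes had 68 probe sets, and for the 5 genes with a second probe set (Cox5b, Cox7b, Ndufa8, Ndufa11 and Ndufa12) the one with the higher mean was used. A pseudogene, Uqcrh-ps1, fits the rule and was kept. Other genes of the same naming pattern, such as Cox6c and Uqcr10, were not analysed here.

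The mice were FVB/N males, 4 MDR1A KO and 4 WT, with 1 tumor and 1 array each. MDR1A KO mice carry the Abcb1a disruption in every cell of the body, so a difference between tumors is not tied to 1 cell type. Mice of either genotype had received azoxymethane (AOM, a DNA-damaging carcinogen) once at 10 mg/kg when 6 weeks old, then 3 cycles of 2.5% dextran sulfate sodium (DSS, which injures the colonic epithelium) in the drinking water for 7 days each. The tumors were excised on day 84 and carry the stage adenoma in the labels. Values are log2 signals that the authors obtained by robust multichip averaging (RMA), and a log2 fold change is the MDR1A KO mean minus the WT mean. A pair of kits was in use for RNA extraction, and the sources used here do not say which was used for a given tumor.

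The respiratory chain lies in the inner mitochondrial membrane. Complex I (NADH dehydrogenase) and complex II (succinate dehydrogenase) pass electrons to ubiquinone, complex III (the cytochrome bc1 complex) passes them on to cytochrome c, and complex IV (cytochrome c oxidase) hands them to oxygen. Complexes I, III and IV pump protons, and ATP synthase uses the resulting gradient. Most subunits are encoded in the nucleus, while a core set is encoded in mitochondrial DNA. Colonocytes are known for oxidising butyrate in their mitochondria, and tumors often shift part of their glucose use from respiration to glycolysis.

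The targeted gene was measured first. Abcb1a, which encodes a P-glycoprotein efflux pump, had log2 signals of 6.14, 6.13, 6.37 and 6.87 in MDR1A KO tumors, against 8.69, 9.10, 9.46 and 8.93 in WT tumors. Every MDR1A KO tumor lay below every WT tumor, and the log2 fold change was -2.67 (standard error 0.20, limma adjusted p = 0.00599 by Benjamini-Hochberg). The limma adjusted p was 0.0598 without MDR1A KO replicate 3. The sources used here do not say which part of Abcb1a the probe set covers. The median log2 signal of the 8 arrays ran from 5.62 to 5.67, and the number of arrays limits the precision of every comparison.

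No respiratory chain gene passed the test between genotypes. At an adjusted p under 0.05, limma called 0 of 63 members, beside 0.0158% of all 25341 named probe sets (4 probe sets). At an unadjusted p under 0.05 it called 0 members, beside 6.4% of all probe sets, and 0 members under the methods' t-test passed after adjustment, although 2 (Ndufv2 and Uqcrfs1) had an unadjusted p under 0.05 there. By the criterion of the study's methods (at least a 2-fold change at an unadjusted p under 0.05) 0 members passed in limma, beside 0.241% of all probe sets. The smallest unadjusted p among the members was 0.103 (Uqcrq), and their adjusted p ran from 0.819 to 0.999.

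The intervals say how large a difference these tumors leave room for. The 95% interval of the log2 fold change lay inside a 2-fold change either way for 63 of 63 members, as it did for 96.0% of all genes. It lay within 0.5 log2 units either way for 59 members (93.7%, against 75.3% of all genes), and within 0.25 for 25 members (39.7%, against 13.0%). The 4 members whose intervals reached beyond 0.5 were Ndufa3, Ndufa4, Ndufa4l2 and Uqcrh-ps1, and the outermost interval ends were folds of 1.44 (Ndufa3) and 0.643 (Uqcrh-ps1). A p above the threshold does not show that the levels were equal, and differences smaller than these intervals were not detectable with 4 tumors per genotype.

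The estimates themselves were small and more often negative. Log2 fold changes ran from -0.26 (Uqcrh-ps1) to 0.19 (Ndufa4), with a median of -0.03 beside 0.0027 over all genes. MDR1A KO means were the lower ones for 45 members and the higher ones for 18 (71.4% lower, against 49.2% of all genes). Many members had their lowest or highest signal in the same tumors, as given further on, so these are not 63 separate observations. With 1 tumor left out in turn the number with a lower MDR1A KO mean ran from 32, without MDR1A KO replicate 4, to 52, without WT replicate 1. With each array centred on its median it was 52, with a members' median of -0.08 and a median of all probe sets of -0.04. It was 42 with quantile normalization run again and 39 with array weights.

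**Figure D1:**
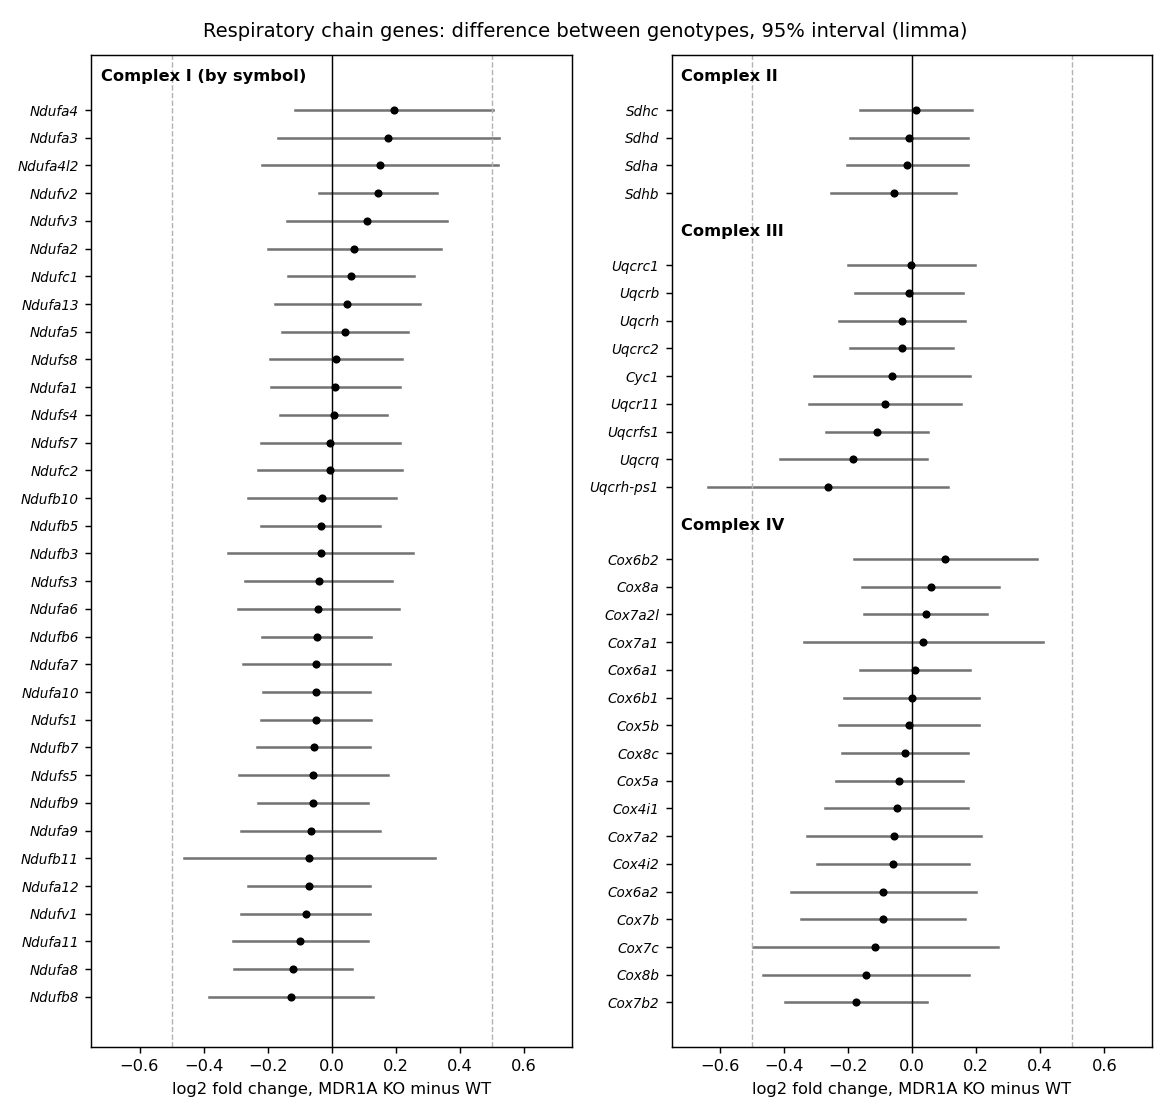
Log2 fold change (MDR1A KO minus WT, horizontal axis) of the 63 respiratory chain genes, 1 row per gene, grouped by complex and ordered by value. Points are limma estimates, bars are 95% intervals and dashed lines mark 0.5 log2 units either way. Every interval includes 0, and 4 reach beyond a dashed line.

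Complex I takes electrons from NADH through a flavoprotein and a chain of iron-sulfur centers. Its 33 members by symbol had a median log2 fold change of -0.03, with 21 lower and 12 higher MDR1A KO means. With 1 tumor left out this median ran from -0.06 to 0.0038, and it was above 0 without MDR1A KO replicate 4 or WT replicate 2. Ndufv2, an iron-sulfur subunit of the NADH-oxidising part, had 10.30, 10.10, 10.14 and 10.08 in MDR1A KO tumors, against 10.00, 10.10, 9.99 and 9.96 in WT tumors. Only WT replicate 2 reached into the range of the MDR1A KO tumors, and the log2 fold change was 0.14 (standard error 0.08, limma adjusted p = 0.821, exact permutation test p = 0.057, two-sided). Ndufv1, the flavoprotein that binds NADH, had a log2 fold change of -0.08, with 8.74 in MDR1A KO replicate 4, up to 9.06 in the other MDR1A KO tumors and 9.02 to 9.05 in WT tumors.

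The accessory subunits of complex I with the largest estimates overlapped between genotypes. Ndufa8, which faces the intermembrane space, had 9.69, 9.65, 9.65 and 9.51 in MDR1A KO tumors, against 9.65, 9.72, 9.82 and 9.79 in WT tumors. The groups met only at WT replicate 1, and the log2 fold change was -0.12 (standard error 0.08, exact permutation test p = 0.057, two-sided). Ndufa3, a small membrane subunit, had 9.44, 9.42, 9.22 and 9.39 in MDR1A KO tumors, against 8.82, 9.08, 9.26 and 9.60 in WT tumors. The WT tumors spanned the whole MDR1A KO range, and the interval of its difference (log2 fold change 0.18, from -0.17 to 0.52) was among the widest of the members. The estimate was 0.31 (unadjusted p of 0.0317) without WT replicate 4 and 0.05 without WT replicate 1. Ndufb8, a subunit of the membrane arm, had the lowest estimate of complex I at -0.13, with WT values from 7.14 to 7.67 around MDR1A KO values from 7.22 to 7.38. Without WT replicate 4 it was -0.05, and without WT replicate 1 it was -0.22. Ndufv3, a small accessory subunit of the NADH-oxidising part, had 7.31 to 7.71 in MDR1A KO tumors, against 7.34 to 7.52 in WT tumors (log2 fold change 0.11, standard error 0.11). Ndufb9, a subunit of the membrane arm, averaged 11.38 ± 0.05 in MDR1A KO tumors and 11.44 ± 0.07 in WT tumors (SD, n = 4 each, log2 fold change -0.06). Ndufs4, an accessory subunit whose loss in mice gives a Leigh-like disease, had the narrowest range of all members over the 8 tumors, 0.12 log2 units (log2 fold change 0.01).

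Ndufa4 and its paralog Ndufa4l2 carry complex I symbols, but the NDUFA4 protein is now counted as a subunit of complex IV, and NDUFA4L2 is known as a hypoxia-induced protein. Ndufa4 had 11.39, 11.52, 11.43 and 10.97 in MDR1A KO tumors, against 11.29, 11.23, 10.90 and 11.11 in WT tumors. MDR1A KO replicates 1 to 3 lay above all WT tumors and MDR1A KO replicate 4 among the lowest WT values (log2 fold change 0.19, standard error 0.14, limma adjusted p = 0.858). Without MDR1A KO replicate 4 the log2 fold change was 0.31, at an unadjusted p of 0.0237 and an adjusted p that still missed the threshold. Ndufa4l2 ranged from 5.33 to 5.68 in MDR1A KO tumors and from 4.84 to 5.59 in WT tumors, with WT replicate 1 the lowest (log2 fold change 0.15, standard error 0.16).

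Complex II is the enzyme shared by the chain and the citric acid cycle, and its 4 subunits are all nuclear. The log2 fold changes were -0.02 for Sdha (the flavoprotein that oxidises succinate), -0.06 for Sdhb (the iron-sulfur subunit), 0.01 for Sdhc and -0.01 for Sdhd (the membrane anchors). Their standard errors were 0.08 to 0.09. Sdha had 10.36, 10.34, 10.38 and 10.43 in MDR1A KO tumors, against 10.25, 10.38, 10.53 and 10.40 in WT tumors. Sdhb had 8.74, 8.62, 8.63 and 8.64 in MDR1A KO tumors, against 8.61, 8.62, 8.86 and 8.77 in WT tumors. For Sdha and Sdhb the WT range contained the MDR1A KO range. The median of the 4 genes, -0.01, ran from -0.06 to 0.0062 with 1 tumor left out, and was above 0 without WT replicate 3 or WT replicate 4.

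Complex III had a lower MDR1A KO mean in all 9 members, with a median log2 fold change of -0.06 and a range of -0.26 to -0.0021. None of these 9 differences passed the test in limma, and not all kept a lower MDR1A KO mean under other settings. Uqcrc1 was at 0.02 with quantile normalization run again and at 0.03 with array weights. With 1 tumor left out Uqcrc1, Uqcrb, Uqcrh and Cyc1 reached 0.04, 0.01, 0.0095 and 0.0075, while the median of the complex stayed between -0.10 and -0.02. Uqcrfs1, the Rieske iron-sulfur protein, was the only member of the 63 whose groups did not overlap, beside 3.72% of all probe sets. It had 7.11, 7.10, 7.05 and 7.07 in MDR1A KO tumors, against 7.13, 7.23, 7.18 and 7.23 in WT tumors. The nearest tumors of the 2 groups, MDR1A KO replicate 1 and WT replicate 1, were 7.11 and 7.13, and the log2 fold change was -0.11 (standard error 0.07, limma adjusted p = 0.843). The exact permutation test gave p = 0.029, two-sided, which is the smallest p that 4 tumors against 4 can give and is not adjusted for the number of genes. Uqcrq, a small subunit, had 6.77, 6.92, 6.78 and 6.54 in MDR1A KO tumors, against 6.84, 6.92, 6.92 and 7.07 in WT tumors. These groups overlapped, and limma put the Uqcrq difference at -0.18 log2 units (standard error 0.10, adjusted p = 0.819). The two-sided exact permutation test gave p = 0.11 for Uqcrq.

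The other subunits of complex III were closer to 0. The core proteins Uqcrc1 and Uqcrc2 had log2 fold changes of -0.0021 and -0.03, the small subunits Uqcrb, Uqcrh and Uqcr11 had -0.01, -0.03 and -0.09, and Cyc1, the cytochrome c1 that feeds cytochrome c, had -0.06. Cyc1 had 8.79, 8.79, 8.71 and 8.49 in MDR1A KO tumors, against 8.56, 8.78, 8.76 and 8.93 in WT tumors. The lowest tumor of each genotype stood well below its other 3, at 8.49 in MDR1A KO replicate 4 and 8.56 in WT replicate 1. The probe set of the pseudogene Uqcrh-ps1 had 3.26, 2.78, 2.57 and 2.92 in MDR1A KO tumors, against 3.18, 3.02, 3.46 and 2.90 in WT tumors (log2 fold change -0.26, standard error 0.17). Copies of a gene can share probe sequence, so whether its signal is separate from that of Uqcrh is uncertain.

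Complex IV has several subunits that exist as isoforms of different tissues. The 17 members had a median log2 fold change of -0.04, with 12 lower and 5 higher MDR1A KO means. With 1 tumor left out the median ran from -0.08 to 0.00087, above 0 only without MDR1A KO replicate 4. The isoforms of most tissues had log2 fold changes of -0.05 (Cox4i1), 0.01 (Cox6a1), -0.00085 (Cox6b1), -0.06 (Cox7a2), -0.09 (Cox7b) and 0.06 (Cox8a). Cox6a1 had 12.42, 12.39, 12.30 and 12.40 in MDR1A KO tumors, against 12.28, 12.40, 12.44 and 12.36 in WT tumors. Cox4i1 had 9.79, 9.67, 9.57 and 9.42 in MDR1A KO tumors, against 9.55, 9.65, 9.68 and 9.75 in WT tumors, so that the MDR1A KO tumors spanned the WT range.

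The isoforms known from heart and skeletal muscle were Cox6a2, Cox7a1 and Cox8b, with log2 fold changes of -0.09, 0.04 and -0.14. Cox7a1 had 7.06, 7.19, 7.22 and 7.21 in MDR1A KO tumors, against 6.68, 7.07, 7.23 and 7.57 in WT tumors. The WT tumors lay on either side of the tight MDR1A KO group, and the standard error was 0.17. Cox4i2, known from lung and from hypoxia, had a log2 fold change of -0.06, and Cox7a2l, a factor in the assembly of supercomplexes, had 0.04. The isoforms known from testis, Cox6b2, Cox7b2 and Cox8c, had 0.10, -0.18 and -0.02. Cox7b2 averaged 2.66 ± 0.10 in MDR1A KO tumors and 2.83 ± 0.14 in WT tumors (SD, n = 4 each, limma adjusted p = 0.819), with only WT replicate 2, at 2.65, inside the MDR1A KO range. It is among the 6 members (with Cox8b, Cox8c, Ndufb11, Ndufs5 and Uqcrh-ps1) in the lowest 33.3% of all named probe sets by mean. No detection call was used, so whether these 6 stood above background was not assessed. The remaining subunit with a wide range was Cox7c, from 4.68 in MDR1A KO replicate 3 to 5.59 in WT replicate 1, the largest range of all members at 0.90 log2 units.

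**Figure D2:**
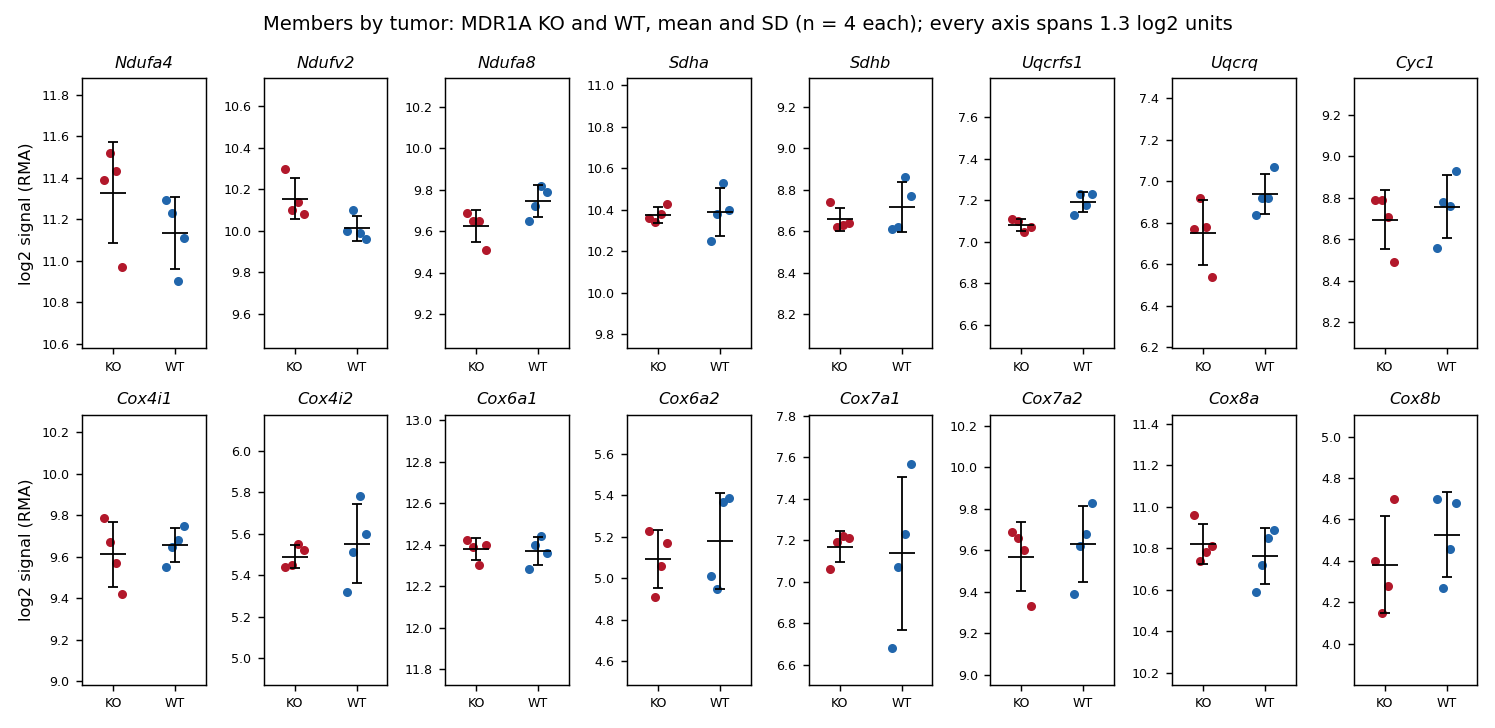
Log2 signal (vertical axis) of 16 members in each tumor, MDR1A KO (red) left of WT (blue), with the 4 replicates of a group in order from left to right, and bars for mean and SD (n = 4 each). Each panel has its own axis, all spanning the same number of log2 units, so distances but not levels can be set side by side. The groups overlap in every panel but that of Uqcrfs1, and the WT spread of Cox7a1 is far wider than its MDR1A KO spread.

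The variation that the members shared ran between tumors of the same genotype. The mean log2 signal over the 63 members was 8.26, 8.22, 8.18 and 8.14 in MDR1A KO replicates 1 to 4, against 8.12, 8.23, 8.26 and 8.30 in WT replicates 1 to 4. The group means were 8.20 ± 0.05 in MDR1A KO tumors and 8.23 ± 0.07 in WT tumors (SD, n = 4 each), and the ranges overlapped. The tumor with the lowest members' mean and the one with the highest were thus both WT tumors, replicates 1 and 4. A lowest signal over the 8 tumors fell in MDR1A KO replicate 4 for 21 members and in WT replicate 1 for 22, together 68.3% of the members, against 27.0% of all genes. A highest signal fell in WT replicates 2, 3 or 4 for 44 members (69.8%, against 46.3% of all genes). In both counts the tumors named are those with the most members, so a share above that of all genes is partly set by this choice. Some related lists had low values in the same tumors and others did not. The mean signal of the ATP synthase genes was lowest in MDR1A KO replicate 4 and next lowest, at 9.01, in WT replicate 1, with 9.09 to 9.17 in the others, and that of the citric acid cycle enzymes was 10.05 in each of these tumors, with 10.08 to 10.19 in the others. The assembly factors of the complexes were also lowest there, by a small margin, at 7.51 in MDR1A KO replicate 4 and 7.49 in WT replicate 1. The other tumors had 7.53 to 7.63. Mitochondrial ribosomal proteins were lowest in MDR1A KO replicate 4 (7.58), with 7.67 in WT replicate 1 and in WT replicate 3. The subunits encoded in mitochondrial DNA were instead lowest in MDR1A KO replicate 2 (12.83), with 12.88 in MDR1A KO replicate 4 and 12.91 in WT replicate 1. Fatty acid oxidation enzymes were lowest in MDR1A KO replicate 3 (8.94), with 9.03 in MDR1A KO replicate 4 and 9.04 in WT replicate 1. Regulators of mitochondrial biogenesis were lowest in WT replicate 1 (7.36), with 7.44 in MDR1A KO replicate 4 and 7.41 in MDR1A KO replicate 2. The pattern was thus seen in some related lists but not in all.

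The 4 complexes did not all follow the same tumors. Over the members of complex I the mean signal was lowest in WT replicate 1 (8.24) and next lowest in MDR1A KO replicate 4 (8.27), and it reached 8.42 in MDR1A KO replicate 1 and in WT replicate 4. For complex II it was also lowest in WT replicate 1 (9.38) and next lowest in MDR1A KO replicate 4 (9.43), with 9.44 to 9.55 in the others. For complex III, Uqcrh-ps1 included, it was lowest in MDR1A KO replicate 4 (8.13), with 8.26, 8.23 and 8.17 in the other MDR1A KO tumors. The WT tumors had 8.21, 8.24, 8.34 and 8.35. For complex IV the MDR1A KO tumors lay between 7.58 and 7.65 and the WT tumors between 7.54 and 7.74. These are descriptions of the same 8 arrays, with no test.

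**Figure D3:**
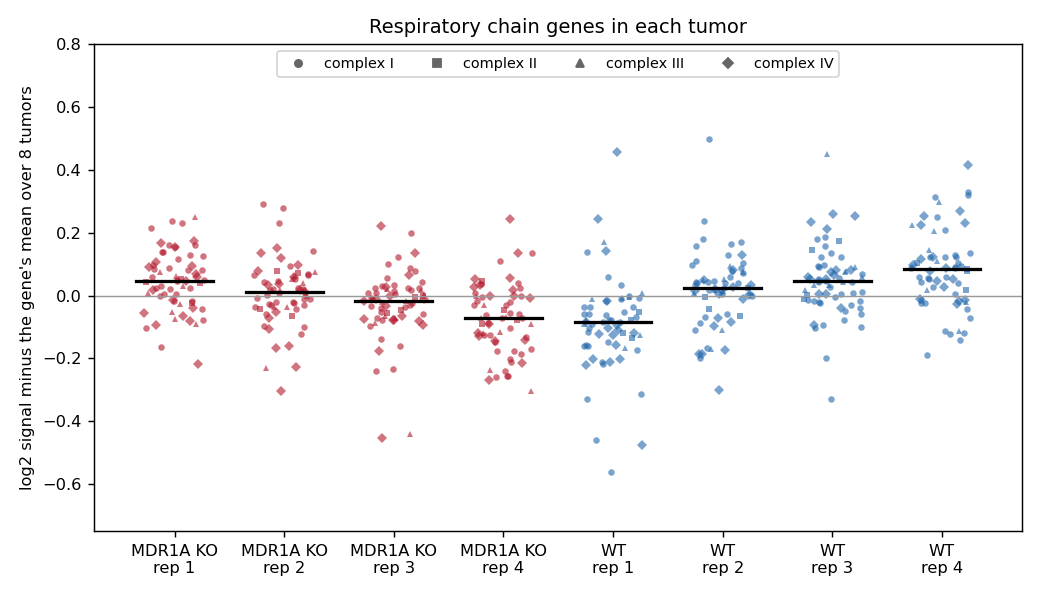
Log2 signal of each of the 63 members minus the gene's mean over the 8 tumors (vertical axis), by tumor, with MDR1A KO tumors in red on the left, WT tumors in blue on the right, marker shape for the complex and a black line for the median over members. The lines of MDR1A KO replicate 4 and WT replicate 1 are the lowest, and that of WT replicate 4 is the highest.

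Within a genotype the members varied less than the median gene did, which is given with no test. Their median within-group SD was 0.119 log2 units, against 0.171 over all genes. It was of similar size in several other mitochondrial lists, at 0.099 for ATP synthase genes, 0.093 for citric acid cycle enzymes, 0.125 for mitochondrial ribosomal proteins and 0.117 for regulators of biogenesis. For the subunits encoded in mitochondrial DNA it was smaller, at 0.053. The median signal was 8.68 over the members and 6.22 over all genes, and the part of signal strength in the spread was not tested. The members' median range over the 8 tumors was 0.33, against 0.51. The range was under 0.5 log2 units for 49 members (77.8%, against 47.9% of all genes). The WT SD exceeded the MDR1A KO SD in 39 members (61.9%, against 65.8% of all genes). The second probe sets of the 5 genes that had 1 gave log2 fold changes of -0.13 (Cox7b) to 0.02 (Ndufa11), with unadjusted p from 0.273 to 0.879.

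Promoters were read for sequence that the naming rule did not use. NRF1, the ETS factor GABPA (NRF2) and YY1 are textbook regulators of nuclear respiratory genes. RefSeq promoters (250 bases before to 50 after the start, GRCm38.p6) matched 49 of the 63 members, and short cores were searched on either strand, with overlapping matches of a core and its reverse complement counted once per promoter. The NRF1 core GCGCATGC was in 7 of the 49 (14.3%, against 3.05% of 27025 promoters), the ETS core CCGGAAGT in 4 (8.16%, against 4.31%) and the YY1 core AAGATGGCG in 4 (8.16%, against 1.64%). Log2 fold changes ran from -0.12 to 0.06 in the 14 members with any of these cores (median -0.04) and from -0.18 to 0.19 in the 35 with none (median -0.03). A match is a run of letters, not a bound site. The promoters of Uqcr11, Ndufa8 and Ndufc1 are shown as examples of a promoter with an NRF1 and an ETS core, with an NRF1 core alone and with a YY1 core. They lie at chr10:80406772-80407071, chr2:36049289-36049588 and chr3:51408906-51409205, all on the minus strand, and are written 5′ to 3′ in the direction of the gene with the cores, or their reverse complements, in capitals.
Uqcr11: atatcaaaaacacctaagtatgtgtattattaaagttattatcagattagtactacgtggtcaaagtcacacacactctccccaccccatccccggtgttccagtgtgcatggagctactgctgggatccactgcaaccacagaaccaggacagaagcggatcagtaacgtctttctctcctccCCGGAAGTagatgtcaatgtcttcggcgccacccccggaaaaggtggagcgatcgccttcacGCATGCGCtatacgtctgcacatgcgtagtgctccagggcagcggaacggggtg
Ndufa8: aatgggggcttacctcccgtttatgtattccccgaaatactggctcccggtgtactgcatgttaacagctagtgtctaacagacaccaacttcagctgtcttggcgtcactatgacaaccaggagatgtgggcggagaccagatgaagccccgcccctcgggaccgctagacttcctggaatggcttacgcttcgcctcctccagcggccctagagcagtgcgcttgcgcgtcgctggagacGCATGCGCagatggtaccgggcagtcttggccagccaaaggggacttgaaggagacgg
Ndufc1: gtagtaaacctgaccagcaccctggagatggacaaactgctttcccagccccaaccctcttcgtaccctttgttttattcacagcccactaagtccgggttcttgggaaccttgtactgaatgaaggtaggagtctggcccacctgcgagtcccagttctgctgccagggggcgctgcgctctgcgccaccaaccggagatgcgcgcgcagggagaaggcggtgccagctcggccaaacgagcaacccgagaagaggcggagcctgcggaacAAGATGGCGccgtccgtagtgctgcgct
In Uqcr11 and Ndufa8 the NRF1 core reads on the opposite strand, as GCATGCGC. The log2 fold changes of these genes were -0.09 (Uqcr11), -0.12 (Ndufa8) and 0.06 (Ndufc1), none past the test.

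The rest of the oxidative phosphorylation system was measured in the same fit. Of 18 ATP synthase genes, 1 had an unadjusted p under 0.05 (5.56%, a share near the 6.4% of all probe sets), and the median log2 fold change was -0.04. That gene was Atpif1, which encodes the inhibitor that blocks ATP hydrolysis by the synthase. It had 9.70, 9.75, 9.72 and 9.60 in MDR1A KO tumors, against 9.54, 9.53, 9.29 and 9.59 in WT tumors (log2 fold change 0.20, standard error 0.09, limma adjusted p = 0.780). The groups did not overlap, as in 3.72% of all probe sets, with 9.60 as the lowest MDR1A KO value and 9.59 as the highest WT value. The catalytic subunits Atp5a1 and Atp5b had log2 fold changes of -0.04 and 0.02.

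Of the 13 subunits encoded in mitochondrial DNA, 10 were found by symbol, and 0 had an unadjusted p under 0.05 (median log2 fold change -0.02, 9 lower and 1 higher MDR1A KO mean). ND6, the subunit encoded on the light strand, had the largest difference at -0.22, with 10.19, 10.07, 10.01 and 10.29 in MDR1A KO tumors, against 10.26, 10.29, 10.20 and 10.69 in WT tumors. WT replicate 4 stood above all other tumors. CYTB of complex III and COX1 and COX3 of complex IV had log2 fold changes of -0.02, 0.01 and -0.05.

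Assembly factors build the complexes but are not part of them. Of 42 measured, 1 was higher and 2 were lower in MDR1A KO tumors at an unadjusted p under 0.05 (together 7.14%, a share near the 6.4% of all probe sets), and 0 passed after adjustment, with a median of 0.00007. Tmem126b, a complex I assembly factor, had 7.39, 7.54, 7.59 and 7.51 in MDR1A KO tumors, against 6.97, 7.14, 7.37 and 7.25 in WT tumors. Every MDR1A KO tumor lay above every WT tumor (log2 fold change 0.33, standard error 0.10, limma adjusted p = 0.689). Groups without overlap were found in 3.72% of all probe sets. Ndufaf8, also an assembly factor of complex I, had 7.41, 7.28, 7.40 and 7.13 in MDR1A KO tumors, against 7.47, 7.57, 7.59 and 7.67 in WT tumors, again with no overlap (log2 fold change -0.27, standard error 0.09, limma adjusted p = 0.721). Higd1a, a hypoxia-induced factor that binds complex IV, had 7.29, 7.43, 7.39 and 7.60 in MDR1A KO tumors, against 7.53, 7.77, 7.55 and 7.84 in WT tumors (log2 fold change -0.24, standard error 0.11, limma adjusted p = 0.780), and its groups overlapped.

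Other mitochondrial genes gave medians as close to 0. All 71 mitochondrial ribosomal protein genes had 95% intervals within 0.5 log2 units either way, 0 had an unadjusted p under 0.05, and their median log2 fold change was -0.03. For 13 enzymes of the citric acid cycle the median was -0.01, for 15 enzymes of fatty acid oxidation it was -0.04, and for 16 regulators of mitochondrial biogenesis it was 0.03, with 0 of each at an unadjusted p under 0.05. The MDR1A KO mean was the lower one for 14 of the 15 fatty acid oxidation enzymes (93.3%, against 49.2% of all genes). It was lower for 45 of the 71 ribosomal protein genes, 8 of the 13 citric acid cycle enzymes and 5 of the 16 regulators. Cpt1a, which admits long-chain fatty acids to mitochondria, had -0.28 (standard error 0.13, limma adjusted p = 0.786) as its log2 fold change. Ppargc1a, the coactivator PGC-1 alpha that drives mitochondrial biogenesis, had 9.01, 8.64, 8.67 and 8.10 in MDR1A KO tumors, against 8.75, 8.52, 7.93 and 7.70 in WT tumors. The tumors of each genotype spread over most of the common range, and the log2 fold change of 0.38 (standard error 0.26) did not pass the test. Tfb1m, which methylates mitochondrial ribosomal RNA, had 0.24 (standard error 0.11, limma adjusted p = 0.782).

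These are whole tumors, in which fewer cells of a type and less RNA per cell cannot be told apart, so marker genes of the cell types are given beside the members. Epithelial markers (10 genes, among them Epcam and Krt8) had a median log2 fold change of -0.12. Their mean log2 signal was 10.51 to 10.61 in MDR1A KO tumors, against 10.67 to 10.79 in WT tumors. These ranges did not overlap, which was so for no other list used here. How often the means of lists in general do so was not tested. Of the 10 epithelial genes 1, Cdx2 (-0.65), was lower at an unadjusted p under 0.05 (10.0%, beside 6.4% of all probe sets). Markers of mature colonocytes had a median of -0.43 over 10 genes, all with a lower MDR1A KO mean. At an unadjusted p under 0.05, 1 of them was lower (10.0%), Krt20, a cytokeratin of the surface epithelium. The mean signal of the 10 genes was 8.31, 8.20, 8.38 and 9.32 in MDR1A KO tumors, against 8.36, 8.69, 9.47 and 9.39 in WT tumors.

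Macrophage markers had a median of 0.45 over 9 genes, of which 6 (Adgre1, Csf1r, Cx3cr1, Aif1, C1qa and C1qb) were higher in MDR1A KO tumors at an unadjusted p under 0.05. That is 66.7%, beside 6.4% of all probe sets. The mean signal of the 9 genes was 8.49 to 8.78 in MDR1A KO tumors, against 7.97 to 8.51 in WT tumors. Smooth muscle markers had a median of 0.74 over 10 genes with 0 at an unadjusted p under 0.05, and a mean signal of 9.44 to 9.85 in MDR1A KO tumors, against 7.98 to 10.14 in WT tumors. Plasma cell markers had a median of 0.61 (2 of 8 higher at an unadjusted p under 0.05), T cell markers 0.38 (1 of 6), fibroblast markers 0.22 (0 of 8) and neutrophil markers -0.22 (0 of 7). Endothelial, pericyte, B cell, striated muscle, adipocyte and male germ cell markers had medians between -0.07 and 0.05. Adipocyte markers had a lower MDR1A KO mean in 8 of 8 genes, with 1 (Cidec, -0.53) at an unadjusted p under 0.05 (12.5%). Among striated muscle markers 1 of 10 (Mylpf, 0.40) was higher at that threshold (10.0%), and in the other lists of this group 0 were called. None of these marker genes passed after adjustment. The part of the cell composition in the members' values was not tested.

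**Figure D4:**
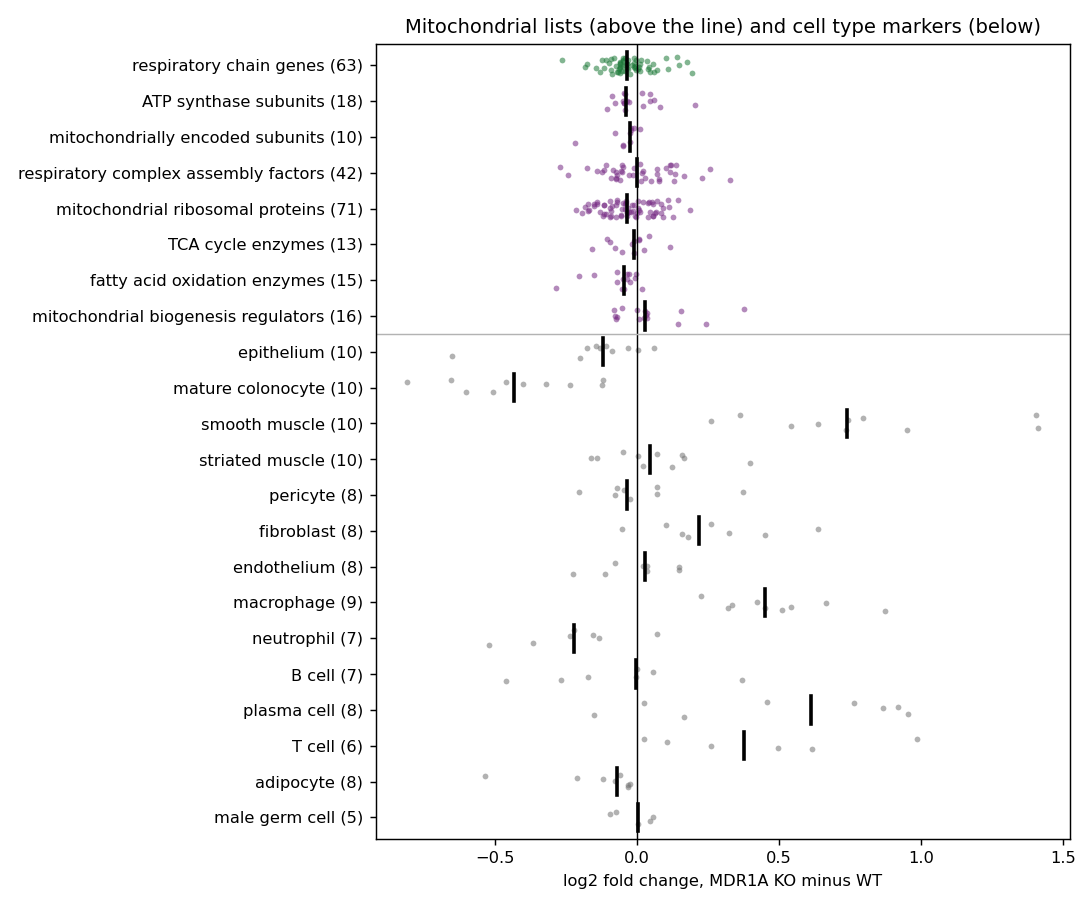
Log2 fold change (MDR1A KO minus WT, horizontal axis) of each gene of the respiratory chain (63, green), of other mitochondrial lists (purple) and of cell type markers (gray), 1 row per list with its number of measured genes, and a black bar for the median. The mitochondrial medians lie between -0.04 and 0.03, while the marker medians run from -0.43 for mature colonocytes to 0.74 for smooth muscle.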

How the data were processed

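Gene expression was measured in 8 colonic tumors with GeneChip Mouse Gene 2.0 ST arrays. The authors used RMA in Affymetrix Expression Console 1.4, which corrects background, gives all arrays the same distribution (quantile normalization) and summarises each probe set, and deposited the resulting log2 signals. These steps are part of every value, and a shift common to all genes of an array would be removed by them. The sources used here do not give the genome build of the arrays.

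Of 41345 probe sets, 23521 had 1 gene symbol, 1820 had several and 16004 had none in the platform annotation, whose symbols were checked against a RefSeq gene table (0 changed). No pair of the 28 array pairs held identical values. The 25341 probe sets with a symbol were fitted with limma 3.58.1 in R 4.3.3 (lmFit and eBayes, two-sided, Benjamini-Hochberg adjustment over all 25341, threshold 0.05), with no filter on low signal. Single genes were compared by exact permutation tests over 70 arrangements, with a smallest p of 0.029, and these p-values are not adjusted. The study's unpaired test was run as the methods' t-test. The fit was tested on simulated data.

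The members, gene lists and tests were chosen with earlier results of these data known. Named are Abcb1a, the 6 largest rises and falls among the members, the isoform sets, complexes II and III, the 3 members of highest and of lowest mean, up to 4 genes of smallest p per other list, and members at an unadjusted p under 0.05. Ndufv1, Ndufs4, Ndufc1, Cox7c and the genes named only for a low signal, a second probe set or a wide range were added after their values were seen, as were Atp5a1, Atp5b, CYTB, COX1, COX3, Csf1r and C1qa. Alternatives were the methods' t-test, other sets of probe sets, centring of the arrays or a repeated quantile normalization, eBayes with trend and robust, array weights, a block for the replicate number, the mean of a gene's probe sets, omission of the 33.3% of probe sets with the lowest mean, a 1.5-fold threshold, other motif cores and each tumor left out in turn. Other steps ran in Python 3.11.15 with pandas 2.3.3, numpy 2.4.6, matplotlib 3.10.9 and scipy 1.17.1.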

Additional observations from a re-analysis of the deposited data

Results flagged for a closer look

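In 2 of 82 groups of 4 tumors examined (the 35 named members, Abcb1a and summary levels among them), 1 tumor stood apart from the other 3 by a share of the group's range above Dixon's critical value. Chance gives such a flag in about 1 in 20 groups. Both flags fell on MDR1A KO replicate 1. Its log2 signal of Cox7a1 was 7.06, with the other MDR1A KO tumors between 7.19 and 7.22. Its log2 signal of Sdhb was 8.74, with the other MDR1A KO tumors between 8.62 and 8.64. Each value lay inside the range of the WT tumors.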

How the results depend on the processing

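Under the 18 alternative settings of the fit, 626 of 626 values of the named members stayed on the same side of the adjusted threshold, the smallest adjusted p of any member ran from 0.702 to 0.997, and every 95% interval of a member tested stayed inside a 2-fold change. Leaving out the 33.3% of probe sets with the lowest mean left 57 members. The number of members at an unadjusted p under 0.05, 0 in the report, was 2 with the methods' t-test (beside 6.12% of all probe sets), 1 with arrays centred on their median (Cox7b2, beside 6.62%), 1 with quantile normalization run again (Uqcrq, beside 6.54%) and 0 to 1 with 1 tumor left out (beside 4.64% to 8.84%): Uqcrh-ps1 without MDR1A KO replicate 1, Ndufa4 without MDR1A KO replicate 4, Ndufb8 without WT replicate 1, Cox7b2 without WT replicate 2 and Ndufa3 without WT replicate 4. These are 0 to 2 of 63 members, a share below that of all probe sets in each case. The cause was not tested. The members' median log2 fold change ran from -0.07 to -0.01 with 1 tumor left out. The adjusted p of Abcb1a missed the threshold with the methods' t-test (log2 fold change -2.67, adjusted p = 0.253), with the replicate number as a block (-2.67, adjusted p = 0.0690) and without MDR1A KO replicate 3, and its log2 fold change ran from -2.83 to -2.53 with 1 tumor left out. The block changed no call of the named members or of their counts. Genes of the other lists were not run under the alternatives. Deviations from the group means correlated at r of 0.11, 0.02, -0.10 and 0.35 between same-numbered tumors. MDR1A KO replicate 4 was closest to WT replicate 4, and the other MDR1A KO tumors to a WT tumor of another number. So few values cannot decide whether the numbers pair tumors. With a shorter ETS core, CCGGAAG, 22.4% of the members' promoters held it, against 9.93% of all promoters. The number of arrays limits what can be seen.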

Other observations

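A further 10 probe sets carried several symbols, at least 1 of them of a respiratory chain gene, and were not used for any member. Their log2 fold changes (MDR1A KO minus WT) ran from -0.17 to 0.10, with a median of -0.04. At an unadjusted p under 0.05 limma called 0 of the 10, and the 95% interval lay within 0.5 log2 units either way for 9.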
